A study of Homo sapiens with 9 samples.

Results

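The comparison described here set 3 RNA-seq libraries of SKOV3 cells expressing Tyr19Phe CDK9 against 3 libraries of SKOV3 cells expressing WT CDK9, 6 of the 9 libraries of the series, and its members were all expressed genes: 16350 of the 58735 genes listed passed the filter on low counts and were tested. SKOV3 is a human ovarian carcinoma line, and both groups were kept under basal conditions. The other 3 libraries came from WT CDK9 cells given an ALK inhibitor for 24 h and are cited only where their values stand beside those of the comparison, because they share the WT CDK9 controls. The study describes stable SKOV3 lines in which tagged CDK9 was put back into cells depleted of their own CDK9 by a short hairpin RNA, while the sample labels give only the form of CDK9 expressed. In Tyr19Phe CDK9 a tyrosine near the start of the kinase was replaced by phenylalanine, which cannot be phosphorylated. The sources do not say whether each line was a clone or a pool, nor whether the 3 libraries of a group came from separate cultures, so the p-values measure the spread between these libraries, which may be technical. An effect of the substitution and any other difference between these stable lines cannot be told apart in this design.

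CDK9 pairs with cyclin T to form P-TEFb, the kinase that phosphorylates the carboxy-terminal domain of RNA polymerase II, NELF and DSIF and so releases paused polymerase into elongation. The 7SK ribonucleoprotein, with HEXIM proteins, LARP7 and MEPCE, holds P-TEFb inactive, whereas the super elongation complex brings it to paused polymerase. In cancer cells, CDK9 is best known for sustaining short-lived transcripts such as those of MYC and MCL1.

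Total counts were 18939449 to 19731228 in the WT CDK9 libraries and 26485891 to 29320184 in the Tyr19Phe CDK9 libraries. The share of counts on mitochondrial genes was 1.73% to 2.46% in WT CDK9 and 2.38% to 3.12% in Tyr19Phe CDK9, with WT CDK9 replicate 2 at the low end and Tyr19Phe CDK9 replicate 3 at the high end. Markers of epithelial and ovarian carcinoma cells summed to 6366 to 6564 CPM (read counts normalised to the TMM-scaled library size) in WT CDK9 and to 6009 to 6163 CPM in Tyr19Phe CDK9 libraries, and the sums of 10 leukocyte and 8 endothelial markers were at most 0.829 and 5.43 CPM. Of 13 tested epithelial and ovarian markers 5 were lower (38.5%) and 2 higher, and 11 lay below 0, with a median log2 fold change of -0.29, so that the sums are carried by abundant members such as KRT7, KRT8 and ERBB2. The part of this shift in the results that follow was not tested. In bulk RNA, fewer cells of a kind and less RNA per cell cannot be told apart.

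CDK9 itself, on chromosome 9, was read at 48.4, 49.7 and 47.6 CPM in WT CDK9 and 52.4, 53.1 and 59.5 CPM in Tyr19Phe CDK9 libraries. The Tyr19Phe CDK9 libraries were all above the WT CDK9 libraries, but the gene did not pass the test (log2 fold change 0.18 ± 0.08 SE, adjusted p = 0.106), which was edgeR's quasi-likelihood test with Benjamini-Hochberg adjustment over all tested genes, as for every adjusted p that follows. The counts do not separate introduced from endogenous CDK9 and do not read the substituted codon, so the genotype labels were not checked by them.

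Across all tested genes, 1695 were called lower in Tyr19Phe CDK9 than in WT CDK9 cells, which is 10.4% of those tested, and 1245 were called higher, which is 7.61%, so that 18% changed in either direction at an adjusted p under 0.05. With all libraries thinned to equal depth, 1614 were lower and 1239 higher. The changes were mostly small. Called genes moved by a median of 0.34 on the log2 scale, in either direction, and 2153 of the 2940 moved by less than 0.5. A log2 change of 1 in size was reached by 182 lower and 111 higher genes. Protein-coding genes held most calls (12.4% lower and 8.95% higher of 13145), whereas of 727 lincRNA genes 1.65% were lower and 3.58% higher, and of 954 antisense genes 1.47% were lower and 0.524% higher. Reads from a gene and its antisense partner cannot be separated here, because the sources do not state whether counting used strand. Calls rose with the expression level, from 1.91% lower and 0.978% higher in the 4088 genes of lowest mean CPM to 21.6% and 13.8% in the 4088 of highest mean CPM.

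The largest falls, leaving out genes that averaged under 1 CPM, were in DMKN, CDH13 and CREB3L1, which were 41.04-fold, 11.1-fold and 10.9-fold lower. DMKN encodes dermokine, a secreted epithelial protein, lies at chr19:35497220-35513658 (GRCh38, as for all positions) and was at 10.7, 11.5 and 12.3 CPM in WT CDK9 and 0.271, 0.0712 and 0.4904 CPM in Tyr19Phe CDK9 libraries. The Tyr19Phe CDK9 values of DMKN rest on 8, 2 and 13 reads. CDH13, which encodes T-cadherin, a cadherin held in the membrane by a lipid anchor, lies at chr16:82626803-83800640 and was at 43.5, 40.4 and 42.2 CPM in WT CDK9 and 3.76, 3.45 and 4.15 CPM in Tyr19Phe CDK9 libraries. CREB3L1, a transcription factor tethered to the endoplasmic reticulum membrane that controls secretory genes, was at 4.002, 4.27 and 5.24 CPM in WT CDK9 and 0.305, 0.214 and 0.717 CPM in Tyr19Phe CDK9 libraries. All 3 passed the test; they were picked among called genes whose groups do not overlap, as is so for 5332 (32.6%) of all tested genes. The log2 fold change was -5.36 ± 0.30 (SE, adjusted p = 5.18e-15) for DMKN and -3.47 ± 0.12 (adjusted p = 1.57e-20) for CDH13. For CREB3L1 it was -3.45 ± 0.38 (adjusted p = 3.66e-08). In the inhibitor-treated WT CDK9 cells the same genes were at 9.84, 46.05 and 4.26 CPM, and none of them was called in that comparison.

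The other genes with large falls included CXCL16 (-2.78), TMEM98 (-2.73), PCSK6 (-2.53), MSI1 (-2.50), CYP4F11 (-2.31), MAP6 (-2.26) and PIANP (-2.25), given with their log2 fold changes. They encode a transmembrane chemokine, a membrane protein, a proprotein convertase, an RNA-binding protein of progenitor cells, a cytochrome P450, a microtubule stabiliser and a membrane protein of neurons. Among genes with the smallest adjusted p, NUP210, a membrane glycoprotein of the nuclear pore, was at 170.3, 179.8 and 174 CPM in WT CDK9 and 54.4, 53.03 and 50.8 CPM in Tyr19Phe CDK9 libraries (log2 fold change -1.73 ± 0.06 SE, adjusted p = 5.13e-20). KRT19, a keratin of simple epithelia, was at 229.6, 243 and 264 CPM in WT CDK9 and 112, 99.9 and 99.9 CPM in Tyr19Phe CDK9 libraries (log2 fold change -1.24 ± 0.06 SE, adjusted p = 3.86e-17). Both were picked by their adjusted p. UGT1A6, a glucuronosyltransferase, was also called lower (-1.80), but it shares exons with the other UGT1A genes, so its counts are uncertain.

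The largest rises, by the same rule, were in genes of low level. The filter asks for enough counts in as many libraries as a group holds. Genes as low in WT CDK9 as DIO2 and HSPB8 can pass it through their Tyr19Phe CDK9 libraries, so that such rises can be partly selected. DDIT4 was not this low in WT CDK9. The part of this selection in their fold changes was not tested. DIO2, which encodes the deiodinase that activates thyroid hormone, was at 0.564, 0.158 and 0.481 CPM in WT CDK9 and 4.06, 3.91 and 1.92 CPM in Tyr19Phe CDK9 libraries (log2 fold change 3.02 ± 0.51 SE, adjusted p = 4.21e-05), with Tyr19Phe CDK9 replicate 3 below the other 2. HSPB8, a small heat shock protein, was at 0.462, 0.0528 and 0.428 CPM in WT CDK9 and 1.49, 1.57 and 2.72 CPM in Tyr19Phe CDK9 libraries (log2 fold change 2.59 ± 0.68 SE, adjusted p = 0.00621); without Tyr19Phe CDK9 replicate 3 its adjusted p was 0.0582. DDIT4, a stress-induced inhibitor of mTORC1, was at 1.64, 3.69 and 2.03 CPM in WT CDK9 and 8.703, 11.1 and 6.904 CPM in Tyr19Phe CDK9 libraries (log2 fold change 1.86 ± 0.27 SE, adjusted p = 3.74e-06). The list also held the receptor gene GPR1 (1.99), HIST1H2BJ (2.49) and HIST1H2BD (1.82), and the noncoding RNAs SIRLNT (2.13), LINC00702 (2.07), AC015712.1 (2.02) and AL713998.1 (2.01). The adjusted p of LINC00702 was 0.134 without Tyr19Phe CDK9 replicate 3, and that of AC015712.1 was 0.061 without replicate 2.

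Rises with the smallest adjusted p included well expressed genes of the cell surface and matrix, beside others. COL5A1, a fibrillar collagen chain encoded in a shifted segment of chromosome 9 described below, was at 751, 765 and 734 CPM in WT CDK9 and 1242, 1231 and 1157 CPM in Tyr19Phe CDK9 libraries (log2 fold change 0.69 ± 0.03 SE, adjusted p = 5.31e-16). INHBA, a subunit of activin A, was at 79.6, 75.5 and 76.2 CPM in WT CDK9 and 163, 158 and 169 CPM in Tyr19Phe CDK9 libraries (log2 fold change 1.08 ± 0.06 SE, adjusted p = 8.69e-16). EFEMP1, the matrix glycoprotein fibulin-3, was at 36.7, 36.7 and 40.03 CPM in WT CDK9 and 98.98, 93.6 and 98.9 CPM in Tyr19Phe CDK9 libraries (log2 fold change 1.36 ± 0.08 SE, adjusted p = 1.88e-14). These 3 were picked by their adjusted p, so that separate groups are no finding. The ectoenzymes ANPEP and NT5E, the gap junction gene GJA1, the desmosome and adherens junction gene JUP, and DPYSL5, a neuronal microtubule-associated protein, had log2 fold changes of 0.92, 0.88, 0.85, 0.92 and 1.52. In inhibitor-treated WT CDK9 cells, ANPEP and NT5E stood at 0.95 and 0.50 against the same controls.

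**Figure D1:**
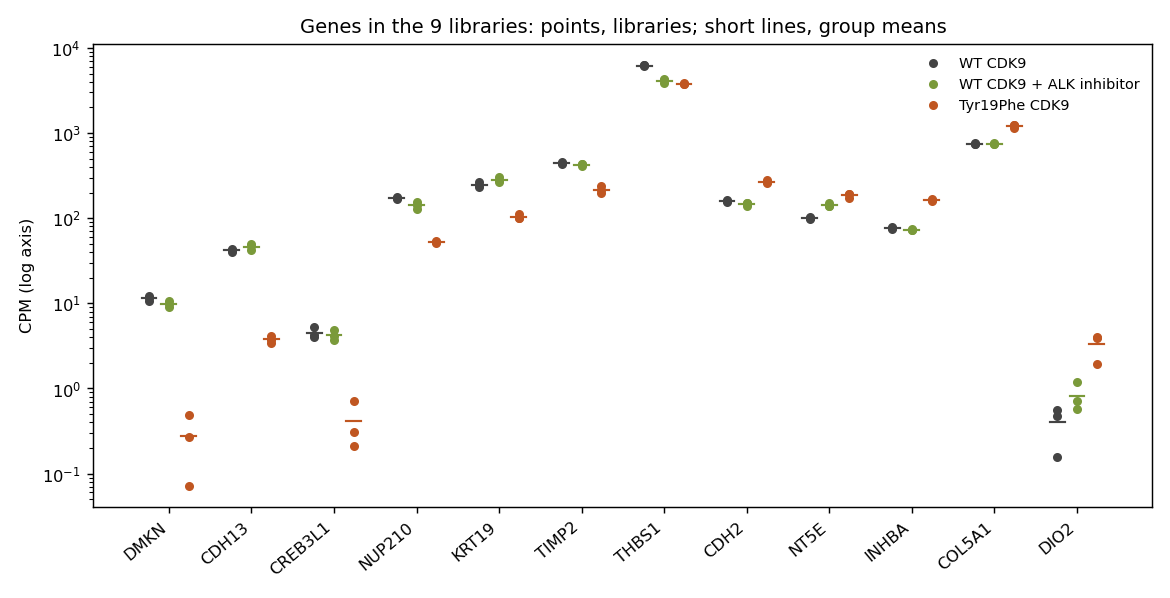
CPM (log axis) of 12 genes in the 9 libraries, with points for libraries and short lines for group means. DMKN, CDH13, CREB3L1, NUP210, KRT19, TIMP2 and THBS1 were lower in all 3 Tyr19Phe CDK9 libraries than in all 3 WT CDK9 libraries, and CDH2, NT5E, INHBA, COL5A1 and DIO2 were higher.

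The calls were unevenly spread over the chromosomes. Of 608 tested genes of chromosome 4, 209 were lower (34.4%) and 6 were higher, with a median log2 fold change of -0.22, whereas of 401 genes of chromosome 22, 111 were higher (27.7%) and 6 were lower, with a median of 0.21. Chromosomes 21 (24.9% lower), 14 (22.3% lower) and 15 (16.3% lower) also stood above the 10.4% of all tested genes, and chromosomes 10 (16.8%) and 9 (15.8%) stood above the 7.61% called higher. On the remaining 15 autosomes and the X chromosome, 6.17% to 10.7% of genes were lower and 1.72% to 9.91% were higher, and medians lay between -0.04 and 0.05. The median over all tested genes was 0.0035.

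**Figure D2:**
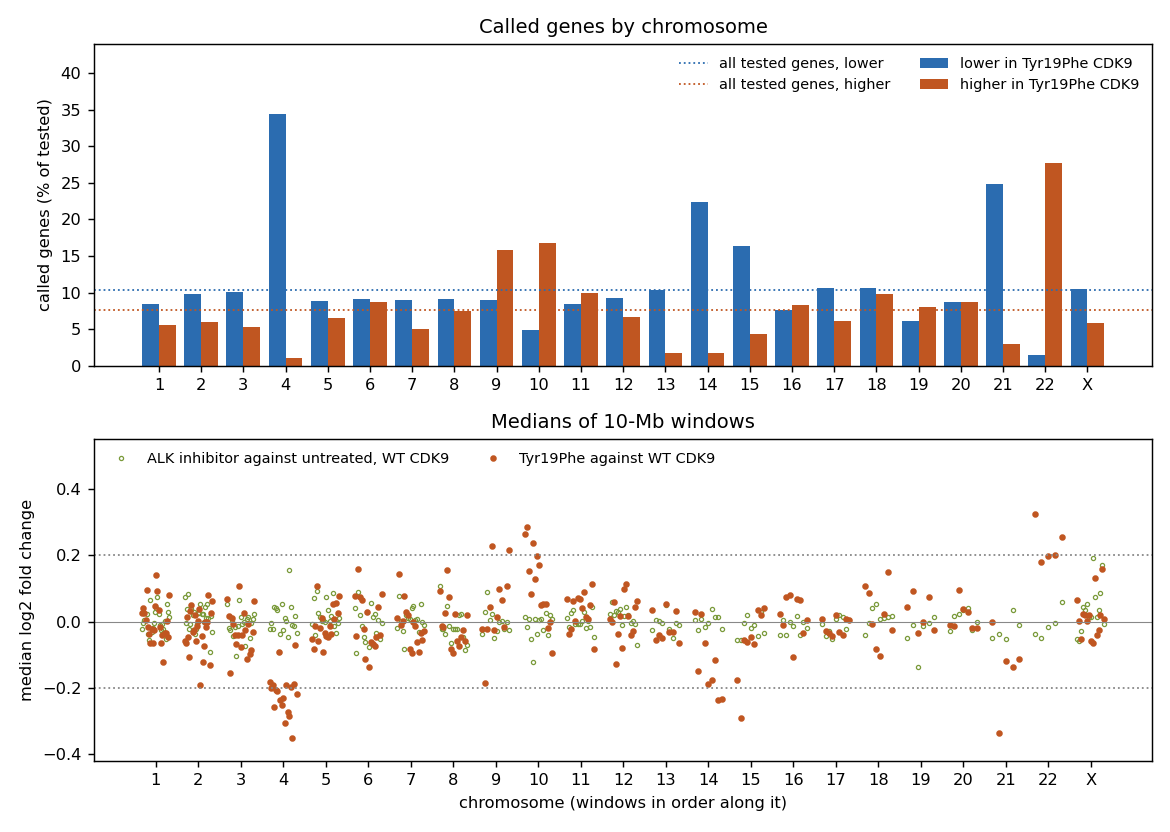
Top, share of tested genes called lower or higher in Tyr19Phe CDK9 on each chromosome, with dotted lines for the shares over all tested genes; bottom, median log2 fold change of the genes in each 10-Mb window for Tyr19Phe against WT CDK9 (filled) and for inhibitor-treated against untreated WT CDK9 cells (open). Windows of chromosome 4 lie low along most of its length and those of chromosome 22 lie high, whereas no window of the inhibitor comparison passes 0.2 in either direction.

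The levels of chromosomes 4 and 22 separated the groups in every library. On chromosome 4, the median difference of the genes' log2 CPM from the WT CDK9 mean was -0.20, -0.23 and -0.22 in the Tyr19Phe CDK9 libraries and 0.01, -0.02 and 0.01 in the WT CDK9 libraries. On chromosome 22 it was 0.20, 0.23 and 0.18 against -0.01, 0.03 and -0.01. In the inhibitor-treated libraries it stayed between 0.003 and 0.025 on chromosome 4 and between -0.032 and -0.016 on chromosome 22. The Tyr19Phe CDK9 libraries thus lay beyond both sets of WT CDK9 cells on these chromosomes. Untreated WT CDK9 libraries are part of the WT CDK9 mean, which draws their values towards it, whereas the inhibitor-treated libraries are not. With each library left out in turn or another scaling the median of chromosome 4 lay between -0.23 and -0.19 and that of chromosome 22 between 0.20 and 0.24.

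**Figure D3:**
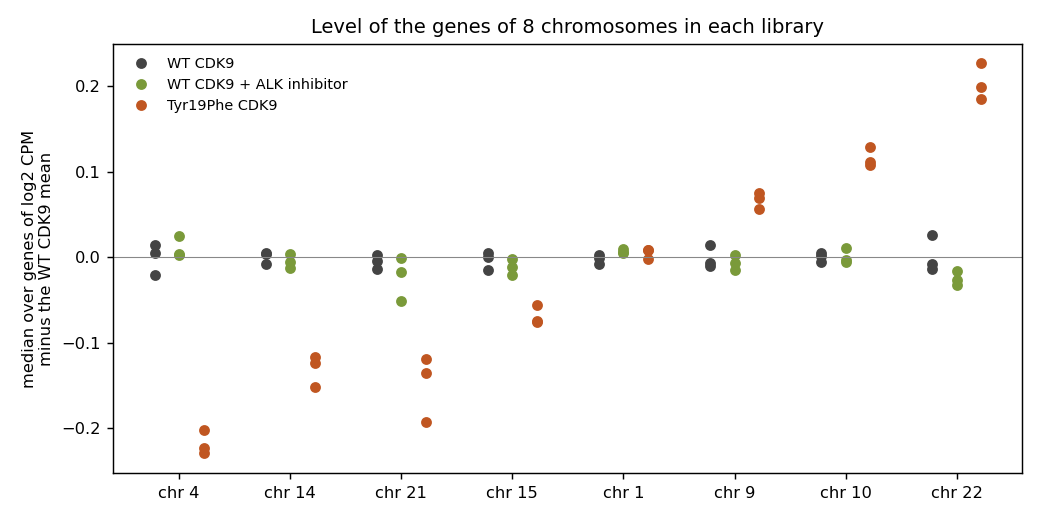
Median over the tested genes of a chromosome of log2 CPM minus the WT CDK9 mean, for 8 chromosomes and all 9 libraries. The 3 Tyr19Phe CDK9 libraries lie near -0.2 on chromosome 4 and near 0.2 on chromosome 22, and near 0 on chromosome 1, where the other 6 libraries also lie.

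Within chromosomes, the size of the shift varied, and windows were marked as shifted by a cut at 0.2. Window medians lay between -0.35 and -0.07 all along chromosome 4 and between 0.18 and 0.32 all along chromosome 22. On these chromosomes the cut splits a shift that runs along the whole chromosome, so their segments are not separate blocks. Of 297 windows of 10 Mb with at least 10 tested genes, 15 had a median at or below -0.2 and 8 a median at or above 0.2, which joined into 14 segments. Since the segments were chosen by these medians, their values are a description. With windows of 5 Mb 26 of 504 were at or below -0.2 and 21 at or above 0.2, and with windows of 20 Mb 11 and 4 of 159. In at least 1 refit the medians of 7 of the 14 segments came inside 0.2, to as little as 0.12 on chromosome 9 from 60 to 70 Mb, 0.18 on chromosome 9 from 130 to 140 Mb and 0.19 on chromosome 22 from 40 to 60 Mb; the other 4, on chromosomes 4, 14 and 21, stayed at or below -0.19. Chromosome 4 held 5 of them, among them the segment of 70 to 110 Mb, where 62 of 153 genes were lower and 3 higher (median -0.26), and that of 150 to 160 Mb, where 18 of 38 were lower and none higher (median -0.35). The end of chromosome 14 from 90 to 110 Mb had 48 of 126 genes lower and none higher (median -0.24). The segment of 30 to 40 Mb on chromosome 15 had 14 of 51 lower (median -0.29), and the segment of 10 to 20 Mb on chromosome 21 had 4 of 12 lower (median -0.34). Higher segments lay on chromosome 10 from 0 to 20 Mb (30 of 80 genes, median 0.27) and from 40 to 50 Mb (10 of 63, median 0.24). Others lay on chromosome 9 from 130 to 140 Mb (40 of 121, median 0.21) and on chromosome 22 from 10 to 20 Mb (12 of 43, median 0.32) and from 40 to 60 Mb (36 of 137, median 0.21). A segment on chromosome 9 from 60 to 70 Mb had a median of 0.23 but no called gene among 18, and 1 inhibitor-treated library stood at 0.32 there.

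The genes named from inside the segments were chosen among called genes, so that most lie beyond the segment medians. On chromosome 4, SCARB2, a lysosomal membrane protein, was at 298, 291 and 295 CPM in WT CDK9 and 186, 183 and 186 CPM in Tyr19Phe CDK9 libraries (log2 fold change -0.67 ± 0.04 SE, adjusted p = 6.70e-14). FGF2, a fibroblast growth factor of the same chromosome, was at 356 ± 13.1 CPM in WT CDK9 and 237 ± 5.59 CPM in Tyr19Phe CDK9 cells (SD, n = 3), with a log2 fold change of -0.59 ± 0.04 (SE, adjusted p = 1.73e-12). PAICS, an enzyme of purine synthesis, was at 401 ± 4.17 and 308 ± 6.67 CPM (log2 fold change -0.38 ± 0.04 SE, adjusted p = 7.88e-09). Some genes of chromosome 4 moved the other way: the interleukin gene CXCL8 rose by 1.16 and the neuropeptide gene NMU by 0.61 on the log2 scale. On chromosome 22, CYB5R3, a cytochrome b5 reductase, was at 299, 321 and 324 CPM in WT CDK9 and 378, 415 and 397 CPM in Tyr19Phe CDK9 libraries (log2 fold change 0.33 ± 0.04 SE, adjusted p = 5.08e-07). HSP90AA1 on chromosome 14, the inducible HSP90, was at 3580.3 ± 57.1 and 2937 ± 83.95 CPM (log2 fold change -0.29 ± 0.03 SE, adjusted p = 4.05e-09).

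The segments held 1011 genes, 6.18% of those tested, with 220 of the 1695 lower and 132 of the 1245 higher calls. Outside them lay 1475 lower and 1113 higher genes. Windows just short of the cut are counted as outside. On chromosome 22 from 20 to 40 Mb they had medians of 0.181 and 0.198, with 30 and 33 genes higher. On chromosome 14 from 60 to 80 Mb the medians were -0.188 and -0.175, with 24 and 18 genes lower. A gene outside the segments, here and in the lists below, may therefore still lie in a shifted region. When the median of each window was instead taken as an offset, 1474 genes were lower and 940 higher. The SD of window medians was 0.103 for Tyr19Phe against WT CDK9 and 0.0416 for inhibitor-treated against untreated WT CDK9 cells, which are the same line. In single libraries, set against the WT CDK9 mean, it was 0.0267 to 0.0385 in WT CDK9, 0.0522 to 0.0611 with inhibitor and 0.104 to 0.110 in Tyr19Phe CDK9. That mean contains each WT CDK9 library, so the WT CDK9 values are small partly by construction. Whether DNA copy number differed between the lines was not tested, and a change of the line and of its CDK9 cannot be told apart here.

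The lists of transcription machinery around CDK9 had medians near 0, with few called genes in each. Of 17 tested genes of P-TEFb, its 7SK brake and the super elongation complex, 3 were lower and none higher (median log2 fold change -0.07). The share lower was 17.65%, against 10.4% of all tested genes. The lower genes were the scaffold genes AFF1 and AFF4 and the elongation factor ELL2. AFF1, on chromosome 4, was at 120.4, 112 and 118 CPM in WT CDK9 and 78.97, 71.7 and 70.3 CPM in Tyr19Phe CDK9 libraries (log2 fold change -0.66 ± 0.06 SE, adjusted p = 7.48e-10). AFF4, its homologue on chromosome 5, was at 191 ± 5.71 and 165 ± 4.98 CPM (log2 fold change -0.21 ± 0.05 SE, adjusted p = 0.000854). The call of ELL2 (log2 fold change -0.18 ± 0.06 SE, adjusted p = 0.0299) did not hold in 8 of 17 refits, where its adjusted p reached 0.179. It was lost without WT CDK9 replicate 1 or 3 or Tyr19Phe CDK9 replicate 2 or 3. It was also lost with scaling by upper quartile or library size alone, equal depth or the window median as an offset. The cyclins CCNT1 and CCNT2 were at -0.11 and 0.05, and the 7SK proteins HEXIM1, LARP7 and MEPCE at -0.07, -0.12 and 0.13 on the log2 scale, none of which passed the test. Of 21 pausing and elongation factors 2 were lower (9.52%) and 3 higher (14.3%, against 7.61% of all tested genes). The latter included SUPT6H (0.24) and NELFB (0.26), which lies in the higher segment of chromosome 9. Of 12 polymerase II subunits, 2 were lower (16.7%), among them POLR2B on chromosome 4 (-0.30), and the median of this list changed sign between scalings.

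Splicing factors were more often lower: 11 of 34 SR and hnRNP genes (32.4%, against 10.4% of all tested genes) were lower and 1 was higher, with a median of -0.06, and 9 of 31 outside the shifted segments were lower. Without WT CDK9 replicate 1, 7 were lower. HNRNPLL, which regulates alternative splicing in lymphocytes, was at 50.8, 51.5 and 51.7 CPM in WT CDK9 and 26.5, 25.3 and 25.1 CPM in Tyr19Phe CDK9 libraries (log2 fold change -1.002 ± 0.08 SE, adjusted p = 1.19e-10). HNRNPD, which binds AU-rich RNA, and HNRNPA1, a general splicing repressor, had log2 fold changes of -0.42 and -0.28.

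Immediate early genes, whose transcripts are short-lived, moved both ways: 8 of 24 were higher (33.3%) and 3 lower (12.5%). Over all tested genes 7.61% were higher and 10.4% lower. Without WT CDK9 replicate 3, 5 were higher. EGR1, a zinc finger factor induced by growth factors, was at 33.6, 29.6 and 39.4 CPM in WT CDK9 and 22.4, 17.4 and 18.6 CPM in Tyr19Phe CDK9 libraries (log2 fold change -0.81 ± 0.12 SE, adjusted p = 8.22e-06). NR4A1 (-0.81) and FOSL2 (-0.25) also fell. KLF4, KLF2, KLF6, DUSP1 and IER3 rose, with log2 fold changes of 1.06, 0.87, 0.43, 0.32 and 0.35. KLF6 lies in the higher segment of chromosome 10 from 0 to 20 Mb (median 0.27). Outside the segments 7 of 23 immediate early genes were higher. Of 14 Kruppel-like factors 5 were higher (35.7%) and 2 lower (14.3%), and 3 were higher without WT CDK9 replicate 1 or Tyr19Phe CDK9 replicate 2.

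Homologous recombination genes were near the background, and G2/M genes were lower more often than all tested genes. Of 27 genes of the homologous recombination core, 2 were lower (7.41%) and 1 higher (3.7%), with a median of 0.02. NBN, the sensor subunit of the MRE11 complex, was at 158, 155 and 164 CPM in WT CDK9 and 124, 118 and 119 CPM in Tyr19Phe CDK9 libraries (log2 fold change -0.40 ± 0.05 SE, adjusted p = 2.34e-07). ATM, the kinase that it activates at double-strand breaks, was at 67.2 ± 2.09 and 58.3 ± 2.84 CPM (log2 fold change -0.21 ± 0.07 SE, adjusted p = 0.0354). This call did not hold in 8 of 17 refits (adjusted p up to 0.169). It was lost without WT CDK9 replicate 1 or 3 or Tyr19Phe CDK9 replicate 1 or 3. It was also lost with scaling by upper quartile or library size alone, no filter beyond 1 count or equal depth. The nuclease DNA2 was higher (0.28), but not without WT CDK9 replicate 1 or 2 or Tyr19Phe CDK9 replicate 3. Nor was it called with libraries thinned to equal depth or with the window median as an offset (adjusted p up to 0.637). Of 43 S phase genes 7 were lower (16.3%) and 3 higher (6.98%), with a median of -0.06. PCNA, the replication clamp, was at -0.22 and RRM2, a ribonucleotide reductase subunit, at -0.19. Of 54 G2/M genes 11 were lower (20.4%) and 3 higher (median -0.07), with the proliferation marker MKI67 at -0.24; 6 were lower without WT CDK9 replicate 1 and 7 without WT CDK9 replicate 3 or Tyr19Phe CDK9 replicate 2. Of 24 p53 target genes 1 was lower (4.17%) and 3 were higher (12.5%).

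Replication-dependent histone genes were the list with the highest median of those with at least 10 tested genes, 0.92. Of the 70 such genes listed, 20 passed the filter, and 9 of these (45%) were higher and none lower. HIST1H2BK was at 3.44, 3.54 and 3.74 CPM in WT CDK9 and 12.97, 13.5 and 10.2 CPM in Tyr19Phe CDK9 libraries (log2 fold change 1.77 ± 0.20 SE, adjusted p = 3.32e-08). HIST1H2AG rose by 1.79 and HIST1H4I by 1.58 on the log2 scale. These levels are low, and members of the family are near-identical, so their counts are uncertain. Members that are low in WT CDK9 can also pass the filter through the Tyr19Phe CDK9 libraries alone. Such transcripts normally lack a poly(A) tail, and the sources do not state how RNA was selected. Without single libraries 6 to 9 were higher.

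Adhesion genes changed in both directions, with more falls among cadherins. Of 19 classical and atypical cadherins 8 were lower (42.1%) and 2 higher, with a median of -0.26. Beside CDH13, the falls included the large protocadherin-like genes FAT1, on chromosome 4, and CELSR2. CELSR2 was at 638, 628 and 642 CPM in WT CDK9 and 463, 460.2 and 459 CPM in Tyr19Phe CDK9 libraries (log2 fold change -0.46 ± 0.04 SE, adjusted p = 1.25e-11). FAT1 was at 667 ± 29.2 and 452 ± 20.99 CPM (log2 fold change -0.56 ± 0.04 SE, adjusted p = 2.90e-12). CDH2, or N-cadherin, was at 163, 156 and 159 CPM in WT CDK9 and 279, 258 and 267 CPM in Tyr19Phe CDK9 libraries (log2 fold change 0.75 ± 0.05 SE, adjusted p = 8.08e-14), and CDH6 rose by 0.32. CDH1, or E-cadherin, was at 0.526 ± 0.322 and 0.475 ± 0.197 CPM and was not called. Of 52 protocadherins 4 were lower (7.69%) and 3 higher (5.77%). Genes of the gamma cluster share exons, so their counts are uncertain.

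Epithelial structural genes split. Of 11 keratins, 4 were lower (36.4%), among them KRT19, KRT5 and KRT17 (-1.24, -1.92 and -0.93). In contrast KRT8 and KRT18, the partner keratins of simple epithelia, were higher (18.2%). KRT8 was at 1282, 1378 and 1260.2 CPM in WT CDK9 and 1677, 1726 and 1681 CPM in Tyr19Phe CDK9 libraries (log2 fold change 0.38 ± 0.03 SE, adjusted p = 5.11e-10). KRT18 had a log2 fold change of 0.39. Of 17 tight junction genes 5 were lower (29.4%), among them the cytoplasmic plaque genes CGN (-1.11) and TJP1 (-0.39), OCLN (-0.67) and CLDN3 (-1.39), and CLDN1 was higher (0.54). The ovarian tumour antigen gene MSLN was at 41.6, 42.2 and 41.4 CPM in WT CDK9 and 12.3, 14.8 and 12.1 CPM in Tyr19Phe CDK9 libraries (log2 fold change -1.67 ± 0.10 SE, adjusted p = 4.91e-14). EPCAM, an epithelial adhesion molecule, had a log2 fold change of -0.82. Vimentin, the intermediate filament of mesenchymal cells, was at 1146 ± 21.4 and 1493 ± 31.02 CPM (log2 fold change 0.38 ± 0.03 SE, adjusted p = 5.88e-11). Among 14 regulators of epithelial-mesenchymal transition 3 were lower (21.4%), including EPCAM and GRHL1 (-2.15), and 3 higher (21.4%), which were SNAI2 (0.23), vimentin and CDH2. Vimentin lies in the higher segment of chromosome 10 from 0 to 20 Mb (median 0.27) and kept its call in all 17 refits. SNAI2 was not called with the window median as an offset (adjusted p = 0.468).

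Matricellular proteins, secreted factors that tune the contact of cells with the matrix, had the lowest median of the lists with at least 10 tested genes, -0.35, with 7 of 17 lower (41.2%) and 1 higher. THBS1, or thrombospondin 1, lies in the lower segment of chromosome 15 and was at 6294, 6242 and 6099 CPM in WT CDK9 and 3902, 3757 and 3793 CPM in Tyr19Phe CDK9 libraries (log2 fold change -0.70 ± 0.03 SE, adjusted p = 1.24e-17). SPP1, or osteopontin, on chromosome 4, was at 222, 217 and 228 CPM in WT CDK9 and 120.04, 96.5 and 92.8 CPM in Tyr19Phe CDK9 libraries (log2 fold change -1.11 ± 0.07 SE, adjusted p = 3.77e-14). FSTL1, VCAN, CTGF and CYR61 also fell (-0.51, -0.42, -0.40 and -0.35), and TGFBI rose (0.16). In inhibitor-treated WT CDK9 cells THBS1 and FSTL1 stood at -0.60 and -0.42 against the same controls, and SPP1 at 0.48.

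Matrix components and their receptors were mixed. Of 23 collagens 7 were lower (30.4%) and 4 higher, with 4 lower without WT CDK9 replicate 2. COL1A1, a chain of fibrillar collagen I, was at 103, 103 and 107 CPM in WT CDK9 and 45.1, 38.3 and 30.4 CPM in Tyr19Phe CDK9 libraries (log2 fold change -1.46 ± 0.09 SE, adjusted p = 1.04e-13), opposite to COL5A1. Fibroblast markers summed to 116 to 119 CPM in WT CDK9 and 41.4 to 56.7 CPM in Tyr19Phe CDK9, and COL1A1 made up most of these sums, while THY1 was at 0.953 ± 0.666 and 0.704 ± 0.571 CPM. Of 11 laminins 4 were lower (36.4%) and none higher, with LAMA5 at -0.35. With scaling by upper quartile 3 were lower, and with scaling by library size alone 2 were. Of 19 integrins 3 were lower (15.8%), including ITGB4 (-0.89) and ITGB8 (-0.38), and ITGA5 (0.41), ITGA6 (0.33), ITGA4 (0.32) and ITGB1 (0.21) were higher (21.05%). Of 38 matrix proteases and inhibitors 6 were lower (15.8%) and 9 higher (23.7%). TIMP2, an inhibitor of metalloproteinases, was at 462, 436 and 449.8 CPM in WT CDK9 and 237, 217 and 198 CPM in Tyr19Phe CDK9 libraries (log2 fold change -1.05 ± 0.05 SE, adjusted p = 3.86e-17). MMP2, the gelatinase that TIMP2 binds, was at 39.9, 42.4 and 45.3 CPM in WT CDK9 and 81.5, 80.6 and 87.2 CPM in Tyr19Phe CDK9 libraries (log2 fold change 0.97 ± 0.07 SE, adjusted p = 5.96e-12). MMP1, ADAM12 and ADAMTS15 also rose (0.50, 0.49 and 0.66).

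Among signalling families, receptor tyrosine kinases had 7 of 25 members lower (28%) and 1 higher, with a median of -0.11, and 4 were lower without Tyr19Phe CDK9 replicate 3. EGFR was at 641, 611 and 635 CPM in WT CDK9 and 439.8, 411 and 417 CPM in Tyr19Phe CDK9 libraries (log2 fold change -0.57 ± 0.04 SE, adjusted p = 3.43e-13). ERBB2, which SKOV3 cells are known to amplify, was at 1773, 1768 and 1858 CPM in WT CDK9 and 1515, 1515 and 1381 CPM in Tyr19Phe CDK9 libraries (log2 fold change -0.29 ± 0.03 SE, adjusted p = 5.40e-08). It stood at 0.54 in inhibitor-treated WT CDK9 cells. RET, the receptor of GDNF ligands, rose from 4.87 ± 0.933 to 11.3 ± 2.94 CPM (log2 fold change 1.21 ± 0.20 SE, adjusted p = 3.33e-05). Of 24 targets of YAP and TAZ 9 were lower (37.5%) and 4 higher (16.7%), with a median of -0.13: CTGF, CYR61 and CRIM1 (-0.34) fell, while ANKRD1 rose (0.67). Axon guidance genes had 12 of 52 lower (23.1%) and 10 higher (19.2%), with EPHB1 (-1.19) and SEMA6B (-1.02) lower. NTN1, which encodes netrin 1, was at 9.24, 8.44 and 7.22 CPM in WT CDK9 and 26.1, 26.7 and 25.1 CPM in Tyr19Phe CDK9 libraries (log2 fold change 1.64 ± 0.15 SE, adjusted p = 3.48e-10).

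Of 28 TGF-beta genes 6 were lower (21.4%, against 10.4% of all tested genes) and 5 higher (17.9%, against 7.61%). Rises included the ligands TGFB2 (0.65) and INHBA and the receptor TGFBR2 (0.45), and falls included BMP2 (-0.45) and BMPR2 (-0.41). Without WT CDK9 replicate 3, 3 were lower. Of 37 Wnt genes 7 were lower (18.9%), including the ligands WNT3A (-2.21) and WNT10A (-1.02). Another 4 were higher (10.8%), including the antagonist DKK1 (0.53) and the ligand WNT9A (0.70). Of 19 Notch genes 5 were lower (26.3%), among them the ligand gene JAG2 (-0.81) on chromosome 14 and NRARP (-0.90), and 2 higher (10.5%). The Notch count of lower genes was 3 without WT CDK9 replicate 1 or 3 and 2 without Tyr19Phe CDK9 replicate 2 or 3. The medians of these 3 lists were -0.05, 0.02 and -0.06, and over the refits those of the Wnt and Notch lists ranged from -0.05 to 0.05 and from -0.09 to 0.04, so that neither has a stable sign. Of 21 MAPK feedback genes 2 were lower (9.52%) and 4 higher (19.05%). Of 11 IGF genes 3 were lower (27.3%) and 1 higher (9.09%).

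**Figure D4:**
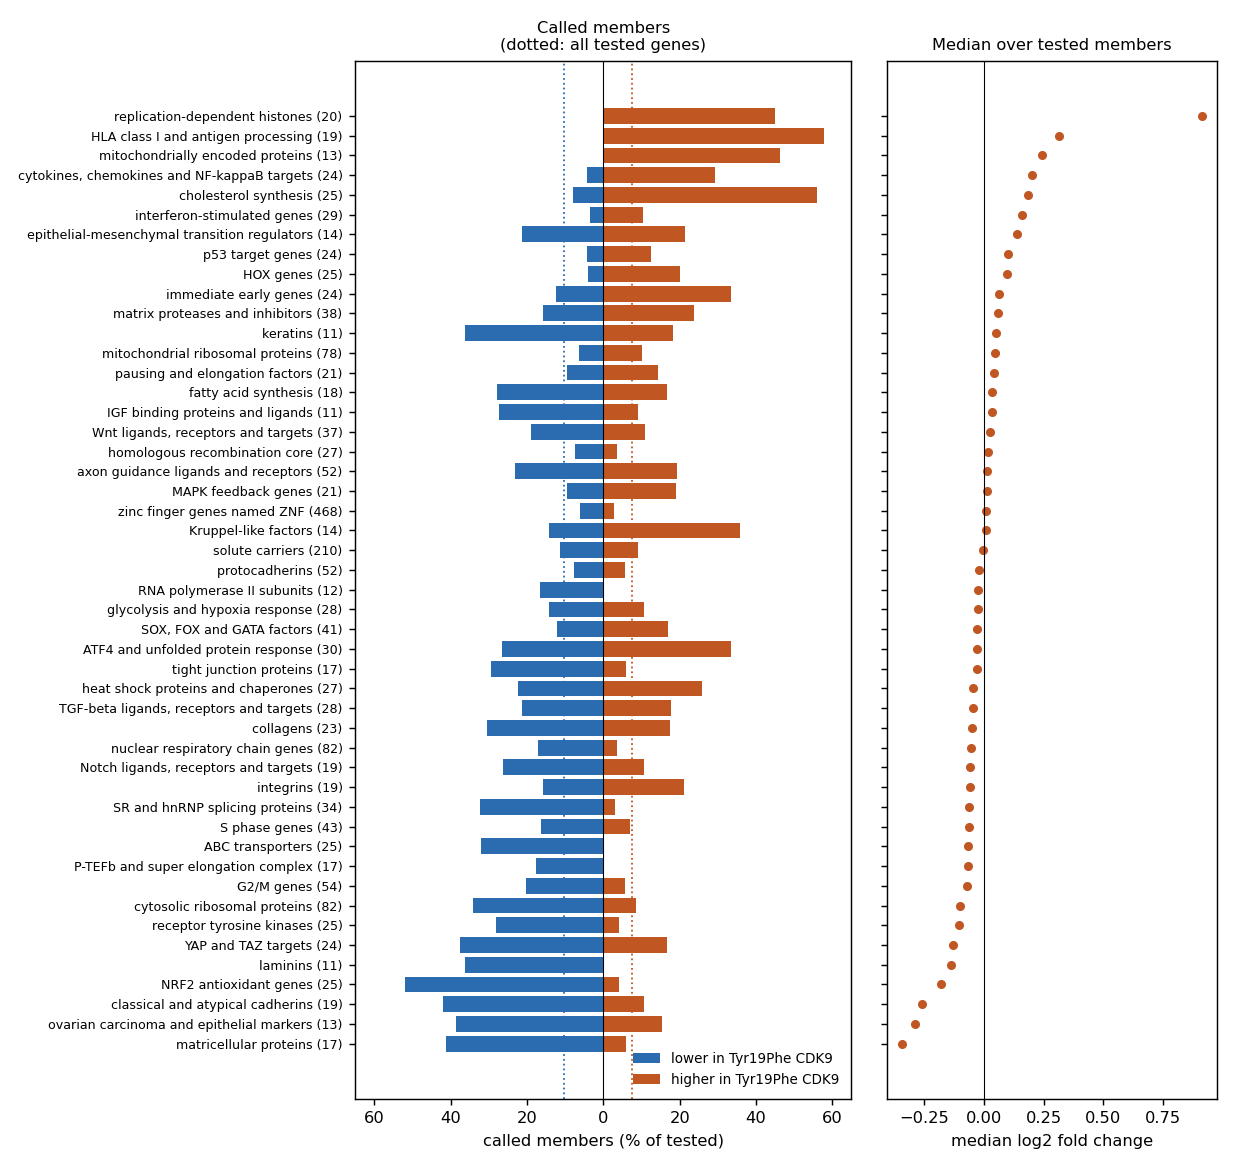
Left, percent of tested members called lower (bars to the left) or higher (bars to the right) in Tyr19Phe CDK9 for the gene lists with at least 10 tested members (number in brackets), with dotted lines for all tested genes; right, the median log2 fold change of each list. Histones, HLA class I and cholesterol synthesis genes lie at the higher end, and NRF2 antioxidant genes, cadherins, epithelial markers and matricellular proteins at the lower end.

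Genes of HLA class I antigen presentation, which displays peptides of the cell's own proteins to T cells, were mostly higher. Of 19 genes 11 were higher (57.9%, against 7.61% of all tested genes) and none lower, with a median of 0.32, and all 19 lie outside the shifted segments. Several, such as HLA-F, TAP1, TAP2 and TAPBP, lie on chromosome 6. Its window of 20 to 30 Mb had a median of 0.16 with 16 of 91 genes higher. That of 30 to 40 Mb had a median of 0.07 with 22 of 173 higher. The part of position in these rises was not tested. Over the refits the list median ranged from 0.19 to 0.34. HLA-B, a classical class I heavy chain, was at 45.9, 49.6 and 59.3 CPM in WT CDK9 and 105, 94.8 and 80.5 CPM in Tyr19Phe CDK9 libraries (log2 fold change 0.86 ± 0.09 SE, adjusted p = 7.61e-09). B2M, the invariant light chain, was at 534, 546 and 572 CPM in WT CDK9 and 714, 689.6 and 662 CPM in Tyr19Phe CDK9 libraries (log2 fold change 0.32 ± 0.04 SE, adjusted p = 7.23e-07). TAP1, a subunit of the peptide transporter, was at 34.1 ± 1.598 and 53.8 ± 2.83 CPM (log2 fold change 0.66 ± 0.09 SE, adjusted p = 1.05e-06). The immunoproteasome genes PSMB9 (1.13) and PSMB10 (0.996) and the class I transactivator NLRC5 (0.66) rose with them; class I genes are alike in sequence, so reads may be split between them. Of 29 interferon-stimulated genes 3 were higher (10.3%) and 1 lower (3.45%). With scaling by library size alone 5 were higher and none lower. With the replicate block 6 were higher, and with the window median as an offset 1 was. Of 24 cytokine and NF-kappaB genes 7 were higher (29.2%), among them CXCL8, TNFAIP3 (0.98), a feedback inhibitor of NF-kappaB, and NFKB2 (0.45), and CXCL16 was lower.

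Promoters of these genes are shown because 11 members rose together. The core of the interferon-stimulated response element was searched as GAAA, any 2 bases and GAAA again, on both strands and with matches allowed to overlap. It was present in the 250 bases before the start of 7 of 15 list members with a RefSeq promoter (GRCh38.p14, 1 promoter per gene), and in 240 of the 10410 tested protein-coding genes with one. Of these 7, HLA-F, TAP1, TAP2, TAPBP, B2M and PSMB10 were called higher and PSME2 was not called. The match describes letters in the window and not a bound factor. The stretches below are 120 bases of the promoters of TAP1 (chr6:32853739-32853858 on the minus strand, ending 35 bases before the start) and B2M (chr15:44711353-44711472 on the plus strand, ending 45 bases before the start), 5′ to 3′ along the gene, with 2 overlapping matches of the core in capitals in each.
TAP1: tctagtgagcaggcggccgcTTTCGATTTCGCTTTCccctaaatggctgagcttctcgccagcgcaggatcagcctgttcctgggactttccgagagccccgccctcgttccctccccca
B2M: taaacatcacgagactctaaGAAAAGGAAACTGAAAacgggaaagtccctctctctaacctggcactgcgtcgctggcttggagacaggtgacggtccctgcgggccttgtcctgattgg

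Of 25 cholesterol synthesis genes 14 were higher (56%) and 2 lower, with a median of 0.18, and 12 of 23 outside the shifted segments were higher. The rises were small and ran along the pathway, from MVK (0.41) and MVD (0.32) to DHCR7 (0.25). SREBF2, the transcription factor that controls the pathway, lies on chromosome 22 and was at 207, 198 and 195 CPM in WT CDK9 and 243, 229 and 233 CPM in Tyr19Phe CDK9 libraries (log2 fold change 0.23 ± 0.04 SE, adjusted p = 0.000222). Its rise was near the median of its segment, from 40 to 60 Mb (0.21). With the window median as an offset SREBF2 was not called (adjusted p = 0.746). Against this, TM7SF2, a sterol reductase, fell by 1.03 on the log2 scale. The count depended on single libraries: 7 were higher without WT CDK9 replicate 1, and 9 without WT CDK9 replicate 3, without Tyr19Phe CDK9 replicate 1, or with the window median as an offset. The core TCACNCCAC of the sterol regulatory element (or GTGGNGTGA on the other strand) was found in 1 of 18 promoters of the list, that of SREBF2, and in 88 of the 10410.

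NRF2 antioxidant genes formed the list with the highest share of falls: 13 of 25 were lower (52%) and 1 higher, with a median of -0.18, and 10 of 21 outside the shifted segments were lower. FTL, the ferritin light chain, was at 1289.8, 1353 and 1363 CPM in WT CDK9 and 948, 957 and 917 CPM in Tyr19Phe CDK9 libraries (log2 fold change -0.51 ± 0.03 SE, adjusted p = 5.79e-13). SLC7A11, the cystine transporter on chromosome 4, was at 474, 449 and 480.2 CPM in WT CDK9 and 295, 313 and 292 CPM in Tyr19Phe CDK9 libraries (log2 fold change -0.64 ± 0.04 SE, adjusted p = 1.39e-13). TXNRD1, thioredoxin reductase, was at 692 ± 15.9 and 550.1 ± 30.03 CPM (log2 fold change -0.33 ± 0.04 SE, adjusted p = 1.80e-07), and NQO1 (-0.30), PGD (-0.38) and TKT (-0.20) fell too. HMOX1, heme oxygenase 1, on chromosome 22, went the other way, at 13.5, 10.8 and 12.3 CPM in WT CDK9 and 24.7, 26.02 and 25.6 CPM in Tyr19Phe CDK9 libraries (log2 fold change 1.06 ± 0.12 SE, adjusted p = 5.49e-08). The regulators NFE2L2 and KEAP1 were at -0.17 and 0.13 and were not called. AKR1C1, AKR1C2 and AKR1C3 are near-identical, so their counts are uncertain.

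The core TGACNNNGC of the antioxidant response element (or GCNNNGTCA on the other strand) was present in 4 of 18 promoters of this list, those of ME1, TXNRD1, PGD and GCLM, and in 1246 of all 10410, and the first 3 of these genes were called lower. The stretches of TXNRD1 (chr12:104215659-104215778 on the plus strand, ending 1 base before the start) and ME1 (chr6:83431089-83431208 on the minus strand, ending 38 bases before the start) are given to show where the core, in capitals, lies.
TXNRD1: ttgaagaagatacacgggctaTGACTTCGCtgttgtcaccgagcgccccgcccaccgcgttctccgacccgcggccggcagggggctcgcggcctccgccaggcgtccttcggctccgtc
ME1: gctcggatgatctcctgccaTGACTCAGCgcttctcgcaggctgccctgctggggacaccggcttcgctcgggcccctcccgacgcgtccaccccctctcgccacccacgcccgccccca

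**Figure D5:**
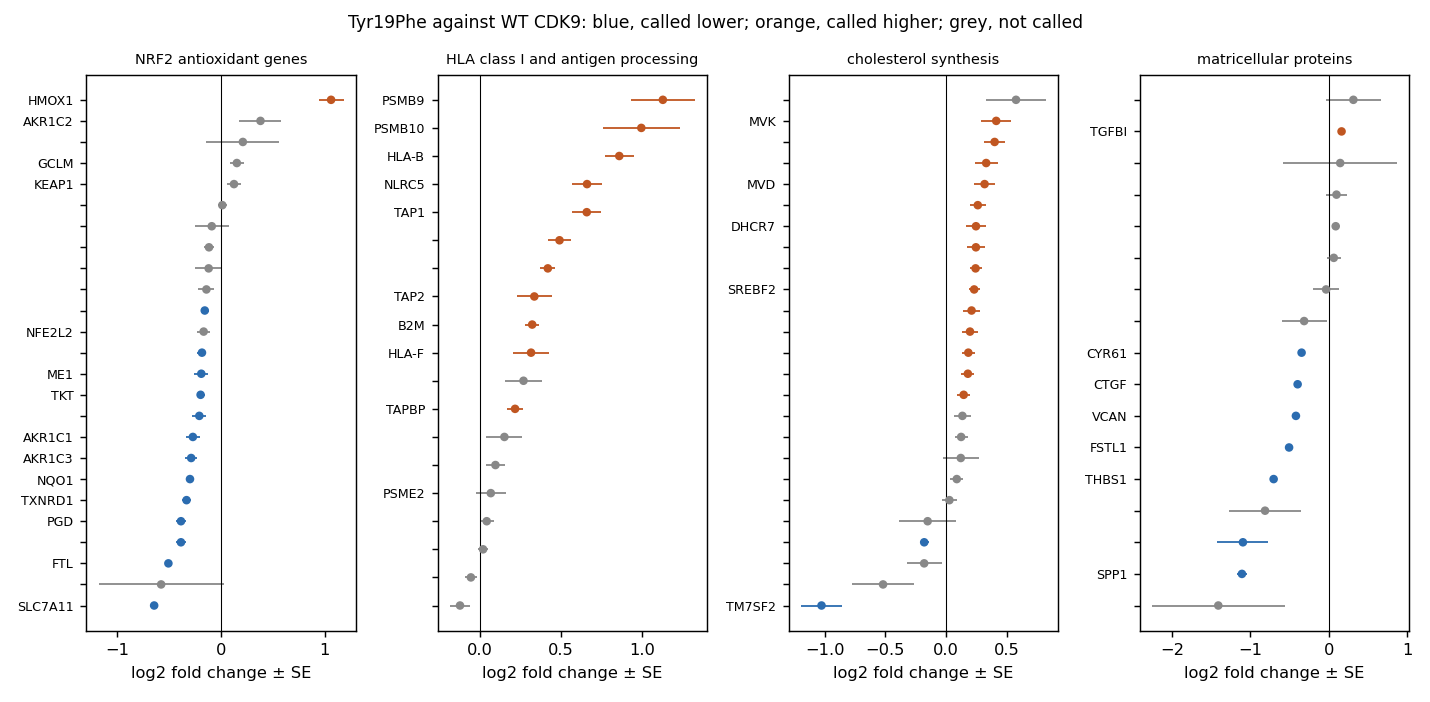
Log2 fold change ± SE of each tested member of 4 lists, Tyr19Phe against WT CDK9, coloured by call; members named in the text carry their symbol. Most NRF2 genes lie below 0 with HMOX1 above, HLA class I and cholesterol genes lie mostly above 0, and the called matricellular genes other than TGFBI lie below 0.

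Stress response genes were divided within their lists. Of 30 genes of the ATF4 and unfolded protein responses 10 were higher (33.3%) and 8 lower (26.7%). TRIB3, a pseudokinase induced by ATF4, was at 22.5, 22.2 and 20.3 CPM in WT CDK9 and 37.4, 41.1 and 37.3 CPM in Tyr19Phe CDK9 libraries (log2 fold change 0.83 ± 0.10 SE, adjusted p = 2.24e-07). PHGDH, the first enzyme of serine synthesis, rose by 0.84, and XBP1, on chromosome 22, by 0.51. Among the falls were the chaperone gene HYOU1 (-0.40) and SEL1L (-0.39), which serves degradation at the endoplasmic reticulum, on chromosome 14. Of 27 heat shock genes 7 were higher (25.9%), with DNAJB1 at 0.32 and HSPA8 at 0.22, and 6 lower (22.2%). The count of lower heat shock genes was 2 without WT CDK9 replicate 1 or Tyr19Phe CDK9 replicate 3 and 3 without WT CDK9 replicate 3 or Tyr19Phe CDK9 replicate 1 or 2. It was also 2 with scaling by upper quartile or library size alone, with no filter beyond 1 count and with the window median as an offset, and 3 with libraries thinned to equal depth; HSPA1A and HSPA1B are near-identical. Of 3 metallothionein genes that passed the filter MT2A and MT1X were higher, although metallothionein genes are near-identical. MT2A, which binds zinc and copper, was at 299.8, 358 and 319.6 CPM in WT CDK9 and 570.1, 537 and 545 CPM in Tyr19Phe CDK9 libraries (log2 fold change 0.76 ± 0.05 SE, adjusted p = 1.62e-13).

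Transporters for drugs and lipids fell more often than they rose. Of 25 ABC transporters 8 were lower (32%) and none higher, with a median of -0.07, and 4 were lower without WT CDK9 replicate 1 and 5 without WT CDK9 replicate 3 or Tyr19Phe CDK9 replicate 2. ABCA3, a lipid transporter of lysosome-related bodies, was at 59.9, 61.9 and 63.1 CPM in WT CDK9 and 25.5, 22.8 and 17.3 CPM in Tyr19Phe CDK9 libraries (log2 fold change -1.49 ± 0.10 SE, adjusted p = 3.00e-13). ABCA1, which exports cholesterol, and ABCC1, a multidrug resistance protein, had log2 fold changes of -0.62 and -0.27. Of 210 solute carriers 24 were lower (11.4%) and 19 higher (9.05%), near the background. The solute carrier median changed sign between scalings, and 12 were higher without WT CDK9 replicate 3. Of 28 glycolysis and hypoxia genes 4 were lower (14.3%) and 3 higher (10.7%), or 5 higher without WT CDK9 replicate 2. LDHA was at -0.14 and the glucose transporter SLC2A1 at 0.25. Of 18 fatty acid synthesis genes 5 were lower (27.8%), including ACLY, which makes cytosolic acetyl-CoA (-0.31), and 3 higher (16.7%). Without WT CDK9 replicate 1, 3 were lower.

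Of 82 cytosolic ribosomal protein genes 28 were lower (34.1%) and 7 higher, with a median of -0.10. RPL9, on chromosome 4, was at 247, 275 and 263 CPM in WT CDK9 and 180.2, 199 and 193 CPM in Tyr19Phe CDK9 libraries (log2 fold change -0.46 ± 0.05 SE, adjusted p = 3.16e-08). RPL34, on the same chromosome, had a log2 fold change of -0.46. The number lower was 14 without WT CDK9 replicate 2, 16 without Tyr19Phe CDK9 replicate 1 and 13 without Tyr19Phe CDK9 replicate 3, and the number higher was 2 without WT CDK9 replicate 1 and 3 without WT CDK9 replicate 3 or Tyr19Phe CDK9 replicate 2. Reads may also fall on processed pseudogenes, whose median was -0.12. Of 82 nuclear genes of the respiratory chain 14 were lower (17.1%) and 3 higher; 5 were lower with the window median as an offset, 9 with scaling by library size alone, 7 without WT CDK9 replicate 2 or Tyr19Phe CDK9 replicate 1 or 3, and 9 without WT CDK9 replicate 3. Of 78 mitochondrial ribosomal protein genes 5 were lower (6.41%) and 8 higher (10.3%). With the window median as an offset 2 were higher, and with scaling by upper quartile or library size alone 3 were lower. The lower count was 2 without WT CDK9 replicate 1, 1 without WT CDK9 replicate 3 and 3 without Tyr19Phe CDK9 replicate 2 or 3, and the higher count was 5 without WT CDK9 replicate 1 or 3 or Tyr19Phe CDK9 replicate 3 and 4 without Tyr19Phe CDK9 replicate 2. The 13 proteins encoded by mitochondrial DNA had a median of 0.24 with 6 higher (46.15%). MT-CO1, for example, was at 5983, 4174 and 6067 CPM in WT CDK9 and 6233, 6049 and 8249 CPM in Tyr19Phe CDK9 libraries, so that the groups overlapped. No gene of this list was higher without Tyr19Phe CDK9 replicate 3 and 1 was without WT CDK9 replicate 2, the libraries with the highest and lowest mitochondrial share. By DESeq2 none was called, and with no filter beyond 1 count 10 were higher.

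Among transcription factors, HOX genes had 5 of 25 higher (20%) and 1 lower, and all 5 lie in the HOXB cluster of chromosome 17. HOXB9 was at 37.2, 37.8 and 39.7 CPM in WT CDK9 and 56.1, 53.6 and 49.9 CPM in Tyr19Phe CDK9 libraries (log2 fold change 0.48 ± 0.08 SE, adjusted p = 5.93e-05). HOXB6, HOXB3 and HOXB8 rose by 0.37, 0.36 and 0.36; genes of the cluster overlap each other, so their counts are uncertain. HOXD11 had 8, 9 and 24 reads in WT CDK9 and 0, 2 and 0 reads in Tyr19Phe CDK9 libraries, too few for a fold change to be given. Of 41 SOX, FOX and GATA factors 7 were higher (17.1%), including GATA6 (0.73) and FOXL1 (1.12), and 5 lower (12.2%), including SOX18 (-1.65). Without Tyr19Phe CDK9 replicate 2, 4 were higher and 3 lower. Of 468 genes named ZNF 28 were lower (5.98%) and 13 higher (2.78%), below the background in both directions, with 8 higher without WT CDK9 replicate 1 or with the window median as an offset, although ZNF699 (-0.98) and ZNF431 (-0.72), both on chromosome 19, were among the lower ones.

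Long genes were lower more often than short ones. Of the 4087 genes with a listed length of 6991 bases or more, 18.99% were lower and 7.68% higher, with a median of -0.04, whereas of the 4089 genes of 2564 bases or less, 184 (4.5%) were lower and 221 higher, with a median of 0.04. By genomic span, the 4088 genes of 68856 bases or more had 19.1% lower and 6.58% higher, and the 4089 of 8635 bases or less 4.67% and 6.16%. The share called also rose with expression, as given above, and the part of expression or of library depth in this pattern was not tested.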

How the data were processed

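Total RNA of 9 SKOV3 samples, 3 per group, was sequenced and counted by the authors; the deposited values are raw read counts per gene, not normalized. The submitters' processing notes name CASAVA, HISAT2 2.0.5, featureCounts 1.5.0-p3 and the hg38 build; strand settings and RNA selection are not given in the sources used here. Groups were taken from the sample titles. Genes were filtered with filterByExpr of edgeR 4.0.16 (R 4.3.3; minimum count 10, minimum total 15), scaled by TMM and fitted over all 9 libraries by group with the quasi-likelihood F-test (6 residual degrees of freedom). P-values were adjusted by Benjamini-Hochberg over 16350 genes, and a gene was called at an adjusted p under 0.05. The procedure was tested on simulated data. Alternatives included DESeq2 1.42.0, other scalings and filters, equal depth, window offsets and single libraries left out. Per-library levels are TMM-scaled CPM. Windows were 10 Mb wide, held at least 10 genes and counted as shifted at 0.2 (log2).

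The comparison and the gene lists were chosen with earlier results of these data known; lists are described by counts and medians, with no set test. Genes were named by rule: CDK9, the 10 largest folds (mean of at least 1 CPM, groups apart) and 10 smallest adjusted p per direction, up to 4 called genes per direction and list, up to 3 per segment with 2 opposite, and all P-TEFb and marker genes. Further members of the NRF2, HLA, cholesterol, matricellular and HOX lists were named after their values were seen. Promoters came from RefSeq (GRCh38.p14). The 3 inhibitor libraries share the WT CDK9 controls and entered only the fit and values set side by side. Some genes of the lists are counted but not reported here by name.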

Additional observations from a re-analysis of the deposited data

How the results depend on the processing

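Requiring an absolute log2 fold change of 1 left 182 lower and 111 higher genes, an unadjusted p under 0.05 gave 2553 and 2186, and an adjusted p under 0.01 left 1135 lower and 715 higher genes. Leaving out 1 library at a time gave 1293 to 1500 lower and 887 to 1149 higher genes. Scaling by library size alone gave 1451 lower and 1544 higher genes, so that 48.4% of calls were lower instead of 57.7%; DESeq2 gave 1688 and 1215. No refit moved either count by over 1.5 times. With the replicate block, 1758 genes were lower and 1318 higher. Deviations of same-numbered WT CDK9 and Tyr19Phe CDK9 libraries from their group means correlated at 0.00226 to 0.00473. These values do not settle whether such libraries shared more than a number. Taking the window median as an offset reversed 11 named genes in shifted windows, to -0.118 for ATP5F1C, 0.048 for HERC5, 0.0043 for HNRNPDL, -0.098 for HNRNPF, -0.0015 for IDI1, 0.066 for KLF13, -0.048 for PEX26, -0.112 for PFKP, -0.052 for RPL7A, -0.040 for TUBB4B and 0.141 for USP25, which follows from how the offset is built. Of 336 named genes that were called, 237 kept the call in each of the refits that tested them, at most 17; stricter thresholds are not among these. Of 51 list medians 21 changed sign in at least 1 refit; those that did so with scaling alone were of polymerase II subunits, protocadherins, glycolysis and solute carriers. Scaling by library size alone moved the number of higher genes from 3 to 5 in each of the pausing factor, G2/M, interferon, fatty acid and respiratory chain lists. The window median as an offset left no higher gene in the S phase, G2/M and respiratory chain lists and 1 in the glycolysis list, from 3 each. With 3 libraries per group and 18939449 or more counts each, genes under 2.52 CPM were seldom called.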
